A study of Homo sapiens with 15 samples.

Results

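The loci described here are the transcripts that carry a CATG name and no gene type in a table of RNA changes after CRISPR activation in HEK293FT cells. They are the 826 rows whose symbol starts with CATG, out of 11230 rows in all (7.36%). CATG identifiers are gene names of the FANTOM CAGE-associated transcriptome, a catalogue that placed long non-coding RNAs by the capped 5′ ends of their transcripts. Many genes in that catalogue start at promoters or enhancers. Non-coding transcripts of this kind are often found beside a protein-coding gene, either running away from its promoter on the other strand, lying antisense to it, or lying within its introns. Their levels are usually low and differ widely between cell types.

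HEK293FT cells descend from human embryonic kidney cells, grow fast and carry the SV40 large T antigen. All libraries came from cells given dCas9-VP64, an activator of MS2, p65 and HSF1, and 5 pooled guide RNAs, with puromycin at 2 ug/mL from 24 hours and harvest at 48 hours, per the labels' protocols. The 5 groups of 3 libraries were non-targeting guides (scramxxx, called control here) and guides placed 50 to 450 bp upstream of the start of a TrEx lncRNA, in the groups titled trex0108, trex4039, trex5008 and trex8168. Title and target label disagree for a pair of groups: trex8168 carries the target label TrEx5008, and trex5008 the target label TrEx8168. The groups are named by title here and the conflict stands. The study used 1 cell line, and transfected cells were selected as a pool.

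Each of the 4 comparisons set a target group against the same control libraries. Levels are group means of normalised counts made by the authors, with no values per library, so no SD can be given and the depth is unknown. Every log2 change and adjusted p printed below was taken from the authors' deposited table, also where a sentence does not repeat it. Each listed row passes an adjusted p of 0.1 in 1 comparison or more, with 0 exceptions; 434 of the 826 CATG loci met this in trex4039 alone. Of 9 markers of the line, 6 are listed (PAX2, INA, KRT8, LHX1, CDH2 and NEFM), and 0 of 5 markers of blood, liver and fibroblast cells are listed. Listing depends on a change, so a marker that is not listed may still be expressed. These counts therefore do not test cell identity. No column ties a TrEx number to a locus, so no locus is called a target of the guides here.

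The 826 loci carry 805 names. A total of 17 names stand on more than 1 locus, 38 loci in all, with 5 loci named CATG00000026850.1. They lie on 23 chromosomes, 97 of them on chromosome 1, and 20 overlap another CATG locus. Strand is not a column of the table. It was read from the order of the locus identifiers, which run up each chromosome once per strand, and it matched the strand of the same gene name in GENCODE 29 for 6330 of 6517 rows (97.1%). By this reading 433 loci lie on the plus and 393 on the minus strand. The match was 82.6% for 86 antisense genes and 89.6% for 48 lincRNAs, so a share of the placements below may be wrong.

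Pseudogene rows apart, the loci were shorter than the other classes of row, and their counts were low. Median locus length was 6830 bp (quartiles 2973 and 15459 bp, range 238 to 389650 bp), against 4491 bp for pseudogene rows, 14804 bp for rows typed antisense, 22942 bp for lincRNA, 47930 bp for protein_coding and 90731 bp for untyped rows named only XLOC. The shortest were CATG00000111151.1 on the X chromosome (238 bp) and CATG00000040077.1 inside the sense strand of MFSD12 on chromosome 19 (358 bp). The longest were CATG00000108406.1 on chromosome 9 (389650 bp) and CATG00000103763.1 on chromosome 8 (375381 bp), and 3 other CATG loci lie within 5 kb of the latter.

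The median mean count over all libraries was 27.2 (range 1.93 to 9964). The corresponding medians were 108 for antisense rows, 112 for lincRNA rows and 1524 for protein_coding rows, in counts that are not divided by transcript length. CATG00000094161.1, an intergenic locus 65818 bp long on chromosome 7, had the highest mean and stood far above the next CATG locus. Its authors' means were 10590 in control, 9505 in trex0108, 7806 in trex4039, 9627 in trex5008 and 12293 in trex8168. It was lower in trex4039 (log2 change -0.32, adjusted p 0.0417 in the authors' deposited table) and did not pass 0.05 in the other 3 comparisons. The next highest, CATG00000118066.1 on chromosome 10, had means of 2091 in control and 2407 in trex4039. CATG00000073563.1 on chromosome 4 followed with 1988 in control and 1285 in trex4039.

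Nearly as many loci overlapped a protein-coding row as did not. A total of 393 loci (47.6%) overlapped one, 459 (55.6%) lay within 5 kb, 611 within 50 kb and 796 within 500 kb, which left 30 farther away. The overlap share was 58.3% for antisense rows, 39.3% for untyped XLOC rows, 30.4% for lincRNA rows and 23.8% for pseudogenes. Where there was no overlap, the median gap of a CATG locus was 49122 bp. Only the protein-coding genes listed in the table can be found this way, so a gap is an upper limit on the distance to a coding gene. Untyped XLOC rows can also hold a CATG locus, and 242 of the 826 loci overlapped no other row of any class.

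**Figure D1:**
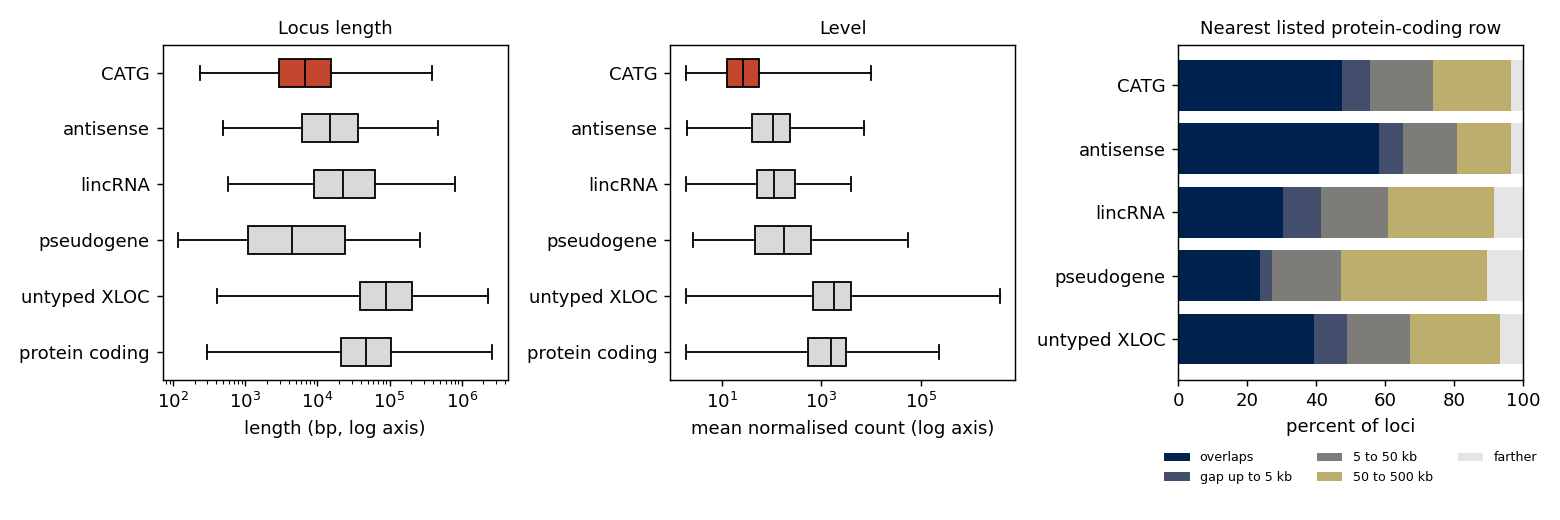
Locus length (bp), mean normalised count over all libraries, and placement against the nearest listed protein-coding row, by class of row; boxes give the quartiles with the median as a line, and whiskers reach the lowest and highest value. CATG loci have a median length of 6830 bp and a median mean count of 27.2, and 47.6% of them overlap a protein-coding row.

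Placement by strand gave 6 kinds. Of the overlapping loci, 211 ran antisense to the coding row and 182 ran in its sense. Among the antisense loci, 93 lay wholly inside the gene, 78 overlapped it head-to-head at the 5′ parts of both, 34 overlapped tail-to-tail and 6 spanned it. Of the sense loci, 180 lay wholly inside the gene, with a median length of 3.93% of the host's span. The 433 loci without overlap were divergent from the nearest coding row in 124 cases, downstream of it on the same strand in 118, upstream on the same strand in 97 and convergent in 94. Of the divergent loci, 30 lay within 1 kb.

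In many head-to-head and close divergent pairs a CATG transcript and a coding gene start near each other on opposite strands. Of the 78 head-to-head pairs, 47 had 5′ ends within 1 kb and 31 farther apart, up to 167203 bp. Promoters of 4 coding partners are shown for the sequence around the coding start. They belong to the pairs with the largest CATG change in a comparison where locus and gene were both called, with 5′ ends at most 1 kb apart and a partner matched on the same strand in RefSeq. Matches were found for 47 of the partners of the 108 head-to-head and close divergent loci. Each sequence runs from 250 bases before to 50 bases after the RefSeq start of the coding gene in GRCh38.p14, in the direction of that gene. Capitals mark the GC box GGGCGG or its reverse complement CCGCCC, the 6 letters bound by SP1-family factors, and no other motif is marked.
PCYOX1: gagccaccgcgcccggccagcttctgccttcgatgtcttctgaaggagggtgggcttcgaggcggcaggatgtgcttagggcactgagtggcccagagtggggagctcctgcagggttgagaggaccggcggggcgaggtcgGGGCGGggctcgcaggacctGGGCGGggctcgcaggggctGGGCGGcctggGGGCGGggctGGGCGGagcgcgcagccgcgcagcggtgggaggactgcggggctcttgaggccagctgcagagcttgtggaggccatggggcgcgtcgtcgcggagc
PLXDC2: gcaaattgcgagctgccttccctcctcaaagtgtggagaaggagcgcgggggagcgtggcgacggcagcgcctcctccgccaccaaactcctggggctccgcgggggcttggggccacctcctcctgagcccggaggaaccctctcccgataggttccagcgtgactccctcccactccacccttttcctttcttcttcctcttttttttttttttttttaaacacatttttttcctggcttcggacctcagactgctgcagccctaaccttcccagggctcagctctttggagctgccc
NPRL3: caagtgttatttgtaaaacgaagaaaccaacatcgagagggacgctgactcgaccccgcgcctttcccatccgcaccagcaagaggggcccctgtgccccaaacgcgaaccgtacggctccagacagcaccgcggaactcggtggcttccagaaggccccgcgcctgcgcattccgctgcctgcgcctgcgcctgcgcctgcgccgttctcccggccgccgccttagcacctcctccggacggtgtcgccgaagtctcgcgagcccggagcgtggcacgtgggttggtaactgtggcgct
LMAN1: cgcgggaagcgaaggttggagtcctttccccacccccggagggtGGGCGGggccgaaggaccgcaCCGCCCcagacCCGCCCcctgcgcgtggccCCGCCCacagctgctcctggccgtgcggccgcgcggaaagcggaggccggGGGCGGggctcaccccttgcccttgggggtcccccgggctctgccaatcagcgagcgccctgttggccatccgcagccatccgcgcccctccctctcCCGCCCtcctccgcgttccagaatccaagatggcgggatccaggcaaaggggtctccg

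The windows are chr2:70257887-70258186 on the plus strand for PCYOX1, chr10:19816182-19816481 on the plus strand for PLXDC2, chr16:138624-138923 on the minus strand for NPRL3 and chr18:59359216-59359515 on the minus strand for LMAN1. The PCYOX1 window holds 5 GC boxes and 28 CG pairs, and the LMAN1 window 6 GC boxes and 31 CG pairs. NPRL3 has 36 CG pairs and PLXDC2 has 14, and neither window holds a GC box. None of these 4 windows holds the letters TATAAA on either strand. Over 35116 RefSeq promoters of the same 300 bases, 45.0% hold a GC box, 11.5% hold TATAAA and the median number of CG pairs is 14. No share over the partners of all such loci is given, because too few of them were matched for it to stand for the set. The CATG 5′ ends are given in hg19 and are not placed on these windows. CATG names were matched to 0 entries of the RefSeq tables, and sequences of the CATG loci themselves are not used here.

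PCYOX1 encodes prenylcysteine oxidase, which degrades prenylated cysteines. CATG00000048904.1 (chr2:70482750-70485117, hg19, minus strand) overlaps its 5′ part and starts inside the gene, 266 bp from its start. The authors' means of the locus were 24.2 in control, 39.4 in trex0108, 70.7 in trex4039, 85.0 in trex5008 and 25.9 in trex8168. Those of PCYOX1 were 2440, 2555, 3349, 2972 and 2831 in the same order. Locus and gene rose together in trex4039 (log2 changes 0.73 and 0.44) and in trex5008 (0.88 and 0.27) in the authors' deposited table. In trex8168 only the gene passed the threshold, at 0.21 against 0.05 for the locus, and the difference between them was not tested.

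PLXDC2 encodes a transmembrane protein with a plexin domain. CATG00000117497.1 (chr10:20099177-20105041, hg19, minus strand) overlaps its 5′ part head-to-head. The 5′ end of the locus lies inside the gene, 739 bp from the gene's start, and the rest of the locus lies upstream of the gene. The locus had authors' means of 10.5 in control, 38.9 in trex0108 and 10.3 to 16.1 in the other 3 groups. PLXDC2 stood at 614 in control and 2783 in trex0108, with 609 to 686 in the other 3 groups. Both were higher in trex0108, by log2 changes of 0.76 for the locus and 2.06 for PLXDC2 in the authors' deposited table.

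LMAN1 is a cargo receptor that carries glycoproteins from the endoplasmic reticulum to the Golgi, and CATG00000036222.1 (chr18:57026749-57029981, hg19, plus strand) starts 89 bp away. The locus was at 18.6 in control and 41.0 in trex4039, and LMAN1 at 5268 and 6073. The changes were 0.51 (adjusted p 0.00149) and 0.19 (adjusted p 0.0225) in the authors' deposited table, and neither passed 0.05 elsewhere.

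The pair of NPRL3, a subunit of the GATOR1 complex that restrains mTORC1, moved apart. CATG00000026162.1 (chr16:188756-191727, hg19, plus strand) starts 110 bp from NPRL3. Its authors' means were 39.0 in control, 41.4 in trex0108, 61.9 in trex4039, 73.2 in trex5008 and 59.1 in trex8168. Those of NPRL3 were 2173, 2654, 1696, 1783 and 2162. The locus rose and NPRL3 fell in trex4039 (0.39 and -0.34) and in trex5008 (0.55 and -0.27) in the authors' deposited table. In trex0108 NPRL3 rose by 0.28 with the locus at 0.05, which did not pass.

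More CATG loci were called lower than higher in trex4039, trex5008 and trex8168, and those called in trex0108 were all higher. By sign alone, 565 of the 826 loci were below 0 in trex0108 as well. Of 826 loci with an adjusted p in trex0108, 47 (5.69%) rose and 0 fell, counted in the authors' deposited table at the adjusted p threshold of 0.05. All 11230 rows of that comparison had 5.65% higher and 0.249% lower, so the share of CATG rises is near the background. The median CATG change was -0.07 on the log2 scale, against 0.02 over all rows. At an adjusted p under 0.1 the counts were 53 and 0, and unadjusted p-values were not used here.

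In trex4039, 429 of 817 tested loci (52.5%) fell and 85 (10.4%) rose in the authors' deposited table. All rows had 33.7% lower and 37.1% higher. Tested means listed with an adjusted p. Listing asks for an adjusted p under 0.1 in a comparison, and 698 of the 826 CATG loci met this in trex4039. The CATG shares are thus of loci listed mostly through trex4039, not of all CATG loci measured. The same listing rule holds for the other classes. The median CATG change was -0.30 on the log2 scale and that of all rows 0.03. Rows typed antisense were next, with 44.1% lower and a median of -0.25, then lincRNA with 39.8% and -0.19. Protein_coding rows had 30.9% lower, 41.6% higher and a median of 0.09.

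In trex5008 an adjusted p was given for 536 loci, of which 126 (23.5%) fell and 47 (8.77%) rose in the authors' deposited table. All rows had 24.3% lower and 29.8% higher. Over all count levels together, the share of CATG loci that fell was near the background and the share that rose was below it. The share that fell differed between count levels, as given below. The median change was -0.14 for CATG loci and 0.02 for all rows. The 290 loci with no adjusted p include all 138 with a mean count under 10.

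In trex8168, 106 of 597 tested loci (17.8%) fell and 11 (1.84%) rose in the authors' deposited table. All rows had 6.45% lower and 14.6% higher. The median change was -0.18 for CATG loci and 0.04 for all rows, and 229 loci had no adjusted p. Because the 4 comparisons share their control libraries, their shifts in 1 direction are not independent of each other.

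**Figure D2:**
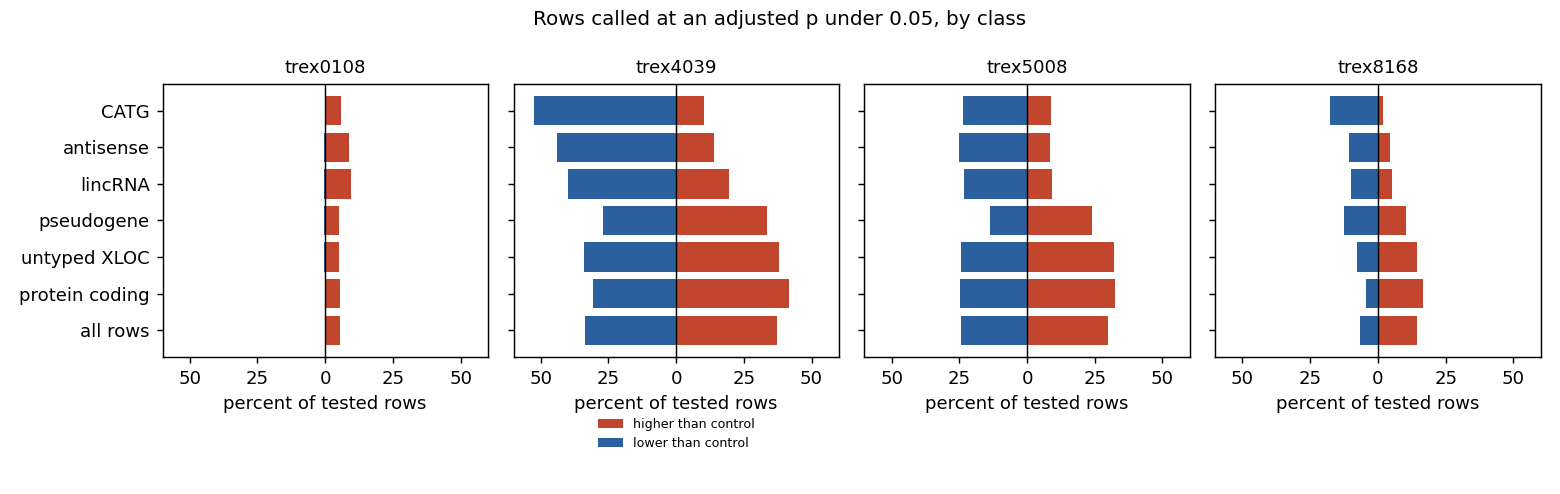
Percent of tested rows higher (right) or lower (left) than control at an adjusted p under 0.05, by class of row, in each of the 4 comparisons. CATG loci have 52.5% lower in trex4039 and 17.8% lower in trex8168, against 33.7% and 6.45% of all rows. Tested rows are listed rows with an adjusted p, and listing depends on a change.

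The shares were also read within bands of count level. The share of CATG loci that fell in trex4039 was 43.4% under 10 counts, 56.5% from 10 to 50, 49.7% from 50 to 200 and 50.0% from 200. In the level band from 10 to 50 counts in trex4039, 257 of 455 CATG loci fell, against 153 of 368 protein_coding rows (41.6%), 35 of 84 antisense rows (41.7%) and 6 of 38 lincRNA rows (15.8%). The medians in this band were -0.34 for CATG loci and -0.29 for protein_coding rows on the deposited log2 scale. At 200 counts or more, 28 of 56 CATG loci and 1904 of 6400 protein_coding rows (29.8%) fell, with medians of -0.23 and 0.13. Antisense rows at that level had 55.3% lower and lincRNA rows 53.6%. In trex8168, 18.7% of CATG loci and 14.1% of protein_coding rows fell in the band from 10 to 50 counts. The shares there were 15.8% and 9.27% from 50 to 200 counts, and 17.9% and 3.69% from 200. Antisense rows from 200 counts had 15.5% lower in trex8168 and lincRNA rows 15.9%. In trex5008, 18.2% of CATG loci and 13.4% of protein_coding rows fell in the band from 10 to 50 counts. The shares there were 26.6% and 25.5% from 50 to 200 counts. At 200 counts or more in trex5008, 24 of 56 CATG loci (42.9%) and 1601 of 6400 protein_coding rows fell. Antisense rows at that level had 38.8% lower and lincRNA rows 40.6%. The part of count level in the class difference was not tested.

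By locus length the classes stood in different orders. Among rows under 2000 bp in trex4039, 59 of 132 CATG loci (44.7%) and 73 of 112 protein_coding rows (65.2%) fell. Above 20000 bp the counts were 67 of 157 (42.7%) and 1436 of 5707 (25.2%). Over 4 length bands the share of CATG loci that fell ranged from 42.7% to 58.1%.

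Group means can be read without a call, but not as separate evidence: the loci are listed for passing a comparison with control, most of them trex4039. The median CATG mean was 31.6 counts in control, 31.1 in trex0108, 25.9 in trex5008, 23.6 in trex8168 and 20.1 in trex4039. Control held the highest of the 5 means for 491 loci (59.4%), and trex4039 the lowest for 511 (61.9%). Control had the lower mean in 201 of the 826 loci when set against trex4039 (24.3%), where it had the lower mean in 51.8% of all rows. Summed over the 826 loci, the means were 72954 in control, 71215 in trex0108, 65336 in trex5008, 68086 in trex8168 and 57918 in trex4039. These sums are 0.231% of all listed counts in control and 0.179% in trex4039.

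The deposited log2 changes are smaller in size than the ratios of the means they accompany, in every called row. As log2 ratios of the means with a pseudocount of 1, the CATG medians were -0.14 in trex0108, -0.82 in trex4039, -0.32 in trex5008 and -0.43 in trex8168. For the 429 loci that fell in trex4039 the median ratio was -1.19 where the authors' deposited table has -0.41. Sizes given below as deposited changes are therefore smaller than the ratios of the means printed beside them.

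The 47 loci that rose in trex0108 included the largest single change of a CATG locus. Their deposited changes ran from 0.26 to 4.14 with a median of 0.67 in the authors' deposited table, and 10 were at least 1. The control mean was under 10 counts for 21 of them and under 1 for 8. In trex0108, 46 had their highest mean, a place that choosing risen loci favours. The 47 loci lie on 20 chromosomes. CATG00000005887.1 (chr1:84160073-84181406, hg19, plus strand, 21334 bp) led, with authors' means of 0.616 in control, 393 in trex0108, 0.986 in trex4039, 0.373 in trex5008 and 1.17 in trex8168. Its change was 4.14 in the authors' deposited table (adjusted p 2.65e-194). The trex0108 mean alone stands above 2 counts. It lies inside an untyped locus on the other strand, XLOC_004320, which stood at 777 in control and 946 in trex0108, a change of 0.26 (adjusted p 0.00998). XLOC_004320 rose more in trex4039 (0.42, mean 1058) and in trex5008 (0.31, mean 975), where CATG00000005887.1 stayed at 0.986 and 0.373 counts. The nearest listed coding row, RPF1, a ribosome biogenesis factor, is 763518 bp away.

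CATG00000110053.1 (chr9:137513894-137516817, hg19, minus strand) rose in a host gene that did not pass the threshold. It sits inside RXRA, the retinoid X receptor alpha gene, on the opposite strand. The means were 0.574 in control and 58.4 in trex0108, with 0.325 to 0.678 in the other 3 groups. Its change was 1.58 in the authors' deposited table (adjusted p 3.70e-36), while RXRA stood at 1262 in control and 1189 in trex0108 with a change of -0.08 (adjusted p 0.931).

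CATG00000041270.1 and CATG00000071563.1 rose with their hosts. The first (chr19:49324119-49327483, hg19, minus strand) lies inside HSD17B14, a hydroxysteroid dehydrogenase gene, in its sense. Its means were 40.9 in control, 176 in trex0108, 20.1 in trex4039, 35.6 in trex5008 and 33.8 in trex8168, and HSD17B14 had 121, 438, 88.2, 107 and 120. The changes in trex0108 were 1.47 and 1.53 in the authors' deposited table. In trex4039 both were lower, by -0.45 and -0.32.

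The second (chr4:811372-815302, hg19, minus strand) lies inside CPLX1, which encodes complexin 1, a regulator of synaptic vesicle fusion. The locus went from 30.6 in control to 140 in trex0108 and CPLX1 from 641 to 1201, where the authors' deposited table has log2 changes of 1.39 and 0.83. In trex4039 CPLX1 was lower (-0.50) and the locus did not pass (-0.33, adjusted p 0.0634). CATG00000111269.1, antisense inside IQSEC2, an exchange factor for ARF GTPases, rose with its host as well, by 0.88 against 0.62 in the authors' deposited table. The loci in HSD17B14 and CPLX1 share strand and position with the host, so reads of the locus and of the host cannot be told apart here.

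Some of the trex0108 rises were neighbours of each other. CATG00000048453.1 (chr1:16117054-16126756, hg19, minus strand) went from 118 counts in control to 406 in trex0108, with 110 to 131 in the other 3 groups. CATG00000048405.1, 678 bp away on the same strand, went from 47.3 to 177, with 55.5 to 71.3 in the other 3. Their changes were 1.48 and 1.31 in the authors' deposited table. FBLIM1, the gene of a filamin-binding protein on the opposite strand, stood at 824 and 808 with a change of -0.03.

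On chromosome 12, CATG00000013843.1 and CATG00000010957.1 overlap on opposite strands. The first went from 60.9 counts in control to 173 in trex0108 and the second from 11.1 to 71.5, where the authors' deposited table has log2 changes of 1.11 and 1.24. In trex4039 the first fell (-0.34) and the second did not pass (-0.04). A total of 19 of the 47 risen loci lie antisense to a coding row, 2 lie in its sense and 13 are over 50 kb from any listed one. Where both locus and nearest row within 5 kb passed in trex0108, 9 of 9 pairs rose together. No other outcome was possible, since 0 CATG loci and 0 of their nearest coding rows were called lower there.

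Of the 11 loci that rose in trex8168, 4 had a deposited change of at least 1. In that group 9 had their highest mean, a place that choosing risen loci favours. CATG00000013615.1 (chr1:114656713-114672188, hg19, plus strand) lies antisense inside SYT6, a synaptotagmin gene. Its means were 0.616 in control, listed at 0 in trex0108, 0.331 in trex4039, 0.555 in trex5008 and 119 in trex8168. The change was 2.39 in the authors' deposited table (adjusted p 3.98e-68). SYT6 stood at 248 in control and 261 in trex8168, with a change of 0.06.

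CATG00000111502.1 (chrX:68216023-68265102, hg19, plus strand) had means of 12.4 in control, 17.1 in trex0108, 8.70 in trex4039, 6.17 in trex5008 and 137 in trex8168, a change of 1.96 in the authors' deposited table. Its nearest listed coding row, PJA1, a ubiquitin ligase gene, is 112006 bp away and rose by 0.16. CATG00000013817.1 (chr12:132100440-132110060, hg19, minus strand) was at 1.18 in control, 1.24 in trex0108, 1.73 in trex5008, 11.05 in trex4039 and 59.0 in trex8168. It rose by 1.51 in trex8168 and by 0.40 in trex4039 in the authors' deposited table. CATG00000076338.1 on chromosome 1 was already at 623 in control and reached 1873 in trex8168, where the other 3 groups had 479 to 613. Its change was 1.26 in the authors' deposited table.

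**Figure D3:**
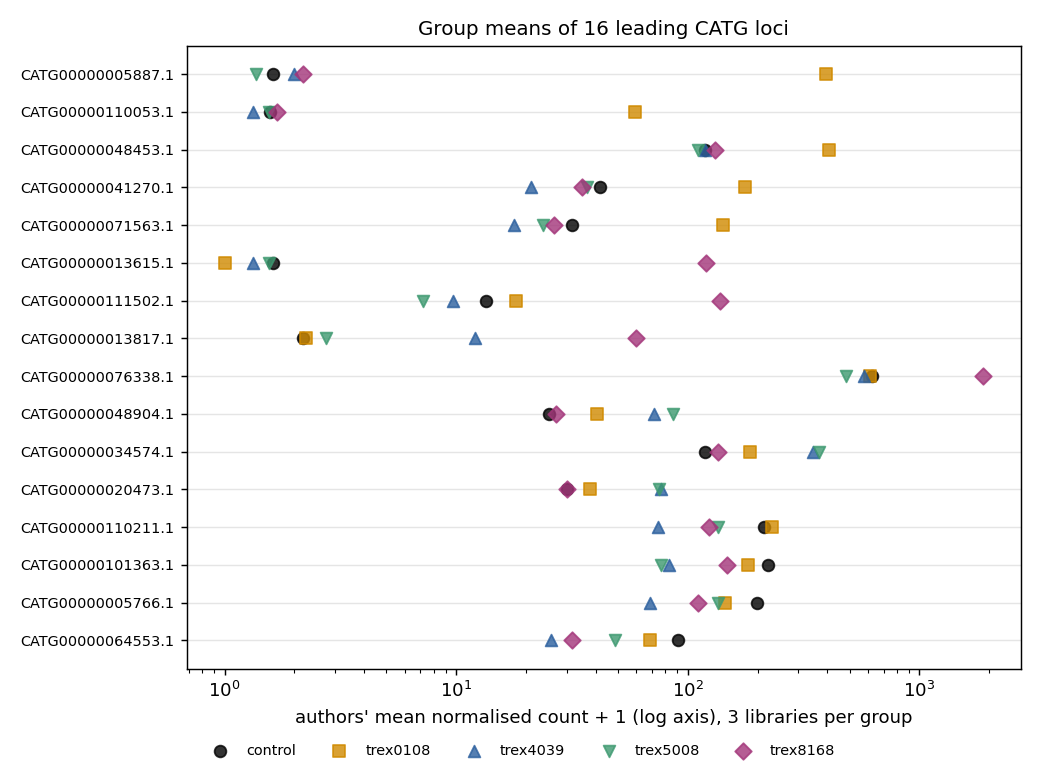
Authors' mean normalised count plus 1 (log axis) in the 5 groups for 16 of the CATG loci with the largest changes; each point is the mean of 3 libraries and no spread is available. The top 5 loci are highest in trex0108 (58.4 to 406 counts), the next 4 in trex8168 (59.0 to 1873), and the last 4 are below control in trex4039.

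Rises in trex4039 and trex5008 were smaller. The 85 risen loci of trex4039 had deposited changes of 0.19 to 0.73 and the 47 of trex5008 had 0.19 to 0.88. Both lists held 26 loci, 30.6% of the first and 55.3% of the second. The overlap over all rows was not counted, so it is not known whether CATG loci differ in this. CATG00000034574.1 (chr17:73198551-73201464, hg19, minus strand) had means of 118 in control, 184 in trex0108, 347 in trex4039, 369 in trex5008 and 133 in trex8168. The changes were 0.69 in trex4039 and 0.73 in trex5008 in the authors' deposited table. SUMO2, which encodes a protein modifier and lies 19316 bp away, did not pass in either (0.10 and 0.08).

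CATG00000020473.1 (chr1:156427291-156446787, hg19, plus strand) overlaps MEF2D, a transcription factor gene, tail-to-tail and moved against it. The locus stood at 29.1 in control, 36.7 in trex0108, 75.3 in trex4039, 74.2 in trex5008 and 29.2 in trex8168. MEF2D stood at 2171, 2542, 1591, 1777 and 1854. In trex4039 the authors' deposited table has log2 changes of 0.65 for the locus and -0.43 for MEF2D, and in trex5008 the values were 0.64 and -0.28. CATG00000030633.1, divergent from the mitotic kinase gene AURKB over 10397 bp, went from 13.6 counts in control to 42.2 in trex4039, a rise of 0.64, while AURKB fell by 0.31 in the authors' deposited table. XLOC_026697, an untyped row that spans this locus on the other strand, fell by 0.47.

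The falls in trex4039 reached a deposited change of -1.13, and 391 of the 429 loci had their lowest mean in that group. Choosing loci called lower in trex4039 favours that place, so the count is not separate evidence. CATG00000110211.1 (chrX:1522625-1526803, hg19, plus strand) went from 211 counts in control to 73.3 in trex4039, with 230 in trex0108, 135 in trex5008 and 123 in trex8168. The changes were -1.13, -0.52 and -0.62 in trex4039, trex5008 and trex8168 in the authors' deposited table. The locus lies inside an untyped row on the same strand, XLOC_067132 (chrX:1511314-1533690), which fell by 1.15, 0.53 and 0.65 in these comparisons, so the fall is not particular to the CATG locus. SLC25A6, a mitochondrial ADP/ATP carrier gene 10835 bp away, fell by 0.22 and 0.23 in the first 2 of these and did not pass in trex8168.

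CATG00000101363.1 (chr8:146017949-146021563, hg19, plus strand) had its largest fall in trex5008. Its means were 221 in control, 182 in trex0108, 82.2 in trex4039, 75.4 in trex5008 and 146 in trex8168, changes of -1.11 in trex4039, -1.21 in trex5008 and -0.50 in trex8168 in the authors' deposited table. The coding row XLOC_064112 starts 117 bp away on the other strand and fell by 0.33 in trex4039 only. Of the 2 loci named CATG00000027868.1 on chromosome 1, the longer (1711 bp) went from 83.5 counts in control to 24.3 in trex4039 and 30.5 in trex5008. FBLIM1, 46492 bp away, rose by 0.23 in trex4039 in the authors' deposited table. XLOC_003447, an untyped row that spans the locus on the other strand, fell by 0.33 in trex4039 and did not pass in trex5008. The shorter locus of the same name fell by 0.74 in trex4039.

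A total of 53 loci fell in the 3 comparisons trex4039, trex5008 and trex8168, 3 rose in 3 comparisons, and 0 were called in all 4. Shared calls were not counted over all rows, so these numbers cannot be read as a trait of CATG loci. In the 53, the median changes were -0.72 in trex4039, -0.43 in trex5008 and -0.50 in trex8168 in the authors' deposited table. In trex0108, 49 of the 53 were below 0 with a median of -0.21, and the smallest adjusted p was 0.188. The control means of the 53 ran from 28.8 to 1988 counts, with a median of 89.2. Of the 53, 50 were lowest in trex4039, a place that choosing loci called lower there favours. By placement, 12 lie in the sense of a coding row, 13 antisense and 28 without overlap. These 3 comparisons share the control libraries, so they are not independent counts of the same fall.

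CATG00000018345.1 beside SDR39U1, CATG00000051288.1 beside the cytochrome P450 gene CYP20A1, and CATG00000057863.1 beside EFCAB6 are the 3 that rose in 3 comparisons, and all overlap the gene head-to-head on the other strand. The 5′ ends of locus and gene are 438, 2035 and 167203 bp apart, in the same order. CATG00000018345.1 had means of 595 in control, 724 in trex0108, 738 in trex4039, 694 in trex5008 and 669 in trex8168. It rose in trex0108 (0.26), trex4039 (0.29) and trex5008 (0.21) in the authors' deposited table, and SDR39U1 fell in trex4039 by 0.21. CATG00000057863.1, 211460 bp long, went from 261 counts in control to 319, 407, 402 and 338 in trex0108, trex4039, trex5008 and trex8168. It rose in the last 3 of these, by 0.53, 0.52 and 0.31 in the authors' deposited table. EFCAB6 rose in trex4039 (0.38) and did not pass in the other 3.

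Loci in the sense of a coding gene were mostly lower in trex4039. Of these 182, 130 (71.4%) fell and 3 rose in trex4039, where 33.7% of all rows fell. Antisense loci had 89 of 207 (43.0%) lower and 29 higher. Divergent loci had 58 of 120 (48.3%) lower, convergent loci 37 of 94 (39.4%), and loci on the same strand 51 of 96 (53.1%) upstream and 64 of 118 (54.2%) downstream. In trex8168, 30 of 104 tested sense loci (28.8%) and 20 of 183 antisense loci (10.9%) fell. In trex5008 the order was the other way, with 16 of 84 sense loci (19.0%) and 48 of 167 antisense loci (28.7%) lower, and 98 of the sense loci had no adjusted p there. Sense loci also had the lowest counts, with a median of 16.8 against 39.5 for antisense loci, and the part of count level in these shares was not tested. The differences between placements were not tested either.

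**Figure D4:**
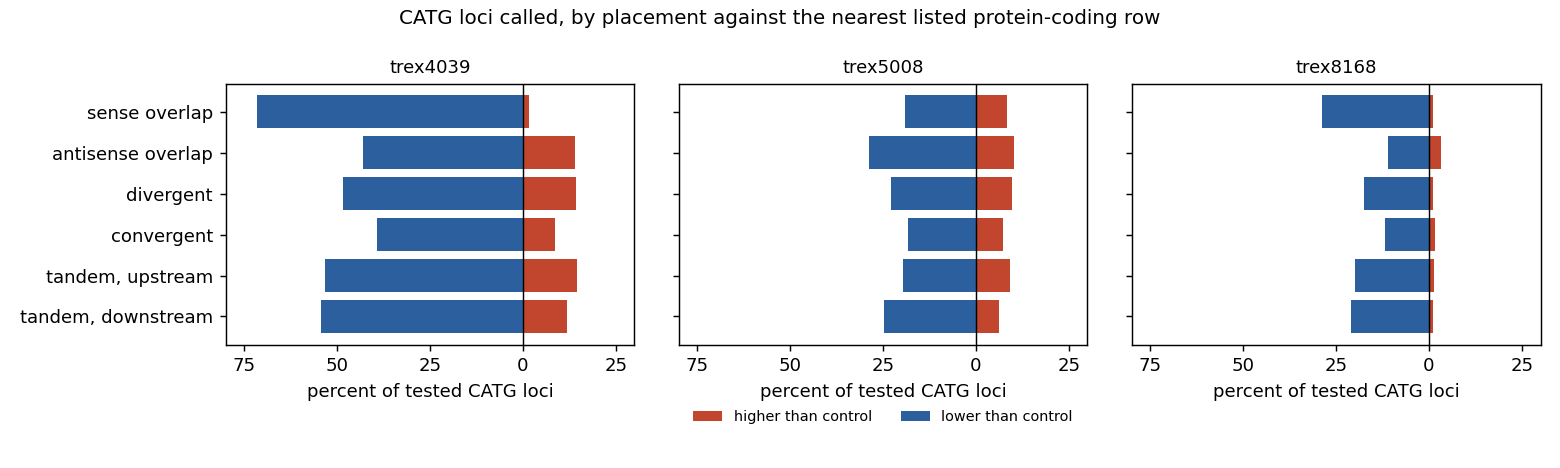
Percent of tested CATG loci higher (right) or lower (left) than control at an adjusted p under 0.05, by placement against the nearest listed protein-coding row, in trex4039, trex5008 and trex8168. Sense loci have 71.4% lower in trex4039 and 28.8% in trex8168.

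Most sense loci lay below their hosts in trex4039. The 180 loci wholly inside a gene had a median change of -0.33 and their hosts 0.08, and 153 loci (85.0%) lay below the host. Of the 113 called together with the host in the authors' deposited table, 56 fell with it and 55 fell where the host rose, while 2 rose with it. The fallen loci were thus divided almost evenly by host direction. The locus also lay below the host in 171 of 180 pairs (95.0%) in trex8168, 156 (86.7%) in trex0108 and 126 (70.0%) in trex5008. On the log2 ratio of means the number below the host was 168 in trex4039.

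Named examples stood on both sides. CATG00000064553.1 (chr3:48071579-48124895, hg19, minus strand) lies inside MAP4, a microtubule-associated protein gene. Its means were 89.6 in control, 67.8 in trex0108, 24.6 in trex4039, 47.3 in trex5008 and 30.7 in trex8168, and MAP4 stood at 9034, 9194, 8256, 8136 and 8880. In trex4039 the locus fell by 0.98 and MAP4 by 0.13 in the authors' deposited table. In trex8168 the locus fell by 0.85 with MAP4 at -0.02, which did not pass.

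CATG00000034633.1 (chr17:74688874-74698108, hg19, minus strand), inside MXRA7, went the other way from its host in trex8168. Its means were 143 in control, 107 in trex0108, 50.9 in trex4039, 67.1 in trex5008 and 66.3 in trex8168, where MXRA7 stood at 3614, 3602, 3838, 3795 and 4255. The locus fell by 0.73 and MXRA7 rose by 0.22 in trex8168 in the authors' deposited table. CATG00000010790.1 inside BRI3BP fell in 3 comparisons, by 0.95, 0.63 and 0.80 in trex4039, trex5008 and trex8168, and BRI3BP passed in none of them (0.08 to 0.16).

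CATG00000005766.1, inside MACROD1, an ADP-ribose hydrolase gene, fell by 1.001 in trex4039 with MACROD1 falling by 0.32 in the authors' deposited table. Its means were 197 in control, 144 in trex0108, 68.0 in trex4039, 134 in trex5008 and 110 in trex8168. CATG00000038215.1 fell by 0.78 inside DOT1L, the histone H3 lysine methyltransferase gene, which fell by 0.63. CATG00000038842.1 fell by 0.82 inside CRTC1, a CREB coactivator gene, which fell by 0.44. CATG00000032680.1 fell by 0.88 inside the forkhead gene FOXK2 and CATG00000038236.1 by 0.92 inside the metallopeptidase gene THOP1, and these hosts fell by 0.18 and 0.30. In each of these pairs the locus had the larger deposited change. Loci were named by their own changes and calls, which favours that order, so it says nothing about locus against host in general.

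In trex4039, 90 antisense pairs were called on both sides in the authors' deposited table, of which 56 fell together, 21 rose together and 13 moved apart. Head-to-head pairs had 31 of 33 in the same direction, 18 lower and 13 higher, and antisense loci inside a gene 33 of 42. In trex5008, 35 of 41 antisense pairs called on both sides had the same direction. In trex8168, 3 had the same and 4 the opposite direction. The 5 such pairs of trex0108 could only rise together, since 0 loci and 0 nearest rows were called lower there. Across the 78 head-to-head pairs of trex4039 the log2 changes correlated with r = 0.64 and rho = 0.65, as a description over pairs that share libraries. Over the 180 sense loci inside a gene r and rho were 0.27. The r of head-to-head pairs was 0.61 in trex5008, 0.60 in trex0108 and 0.28 in trex8168.

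Close pairs without overlap were few. Divergent loci within 5 kb numbered 33, and 10 of the 12 called with their partner in trex4039 moved the same way. Over all 459 loci within 5 kb, 158 of 230 pairs called on both sides moved the same way in trex4039. The counts were 53 of 66 in trex5008 and 7 of 15 in trex8168. In trex0108 the 9 such pairs could only rise together, since 0 loci and 0 nearest rows were called lower. Over 50 kb away, 42 of 89 such pairs had the same direction in trex4039. The nearest coding row was called lower there for 206 loci and higher for 158 within 5 kb. Over 50 kb away it was lower for 51 and higher for 92. Most called CATG loci fell, so the share of pairs alike depends on these directions. Agreement beyond that was not tested. Whether counting kept strands apart is a point not given in the sources used here, and reads of overlapping loci on opposite strands may have been shared.

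**Figure D5:**
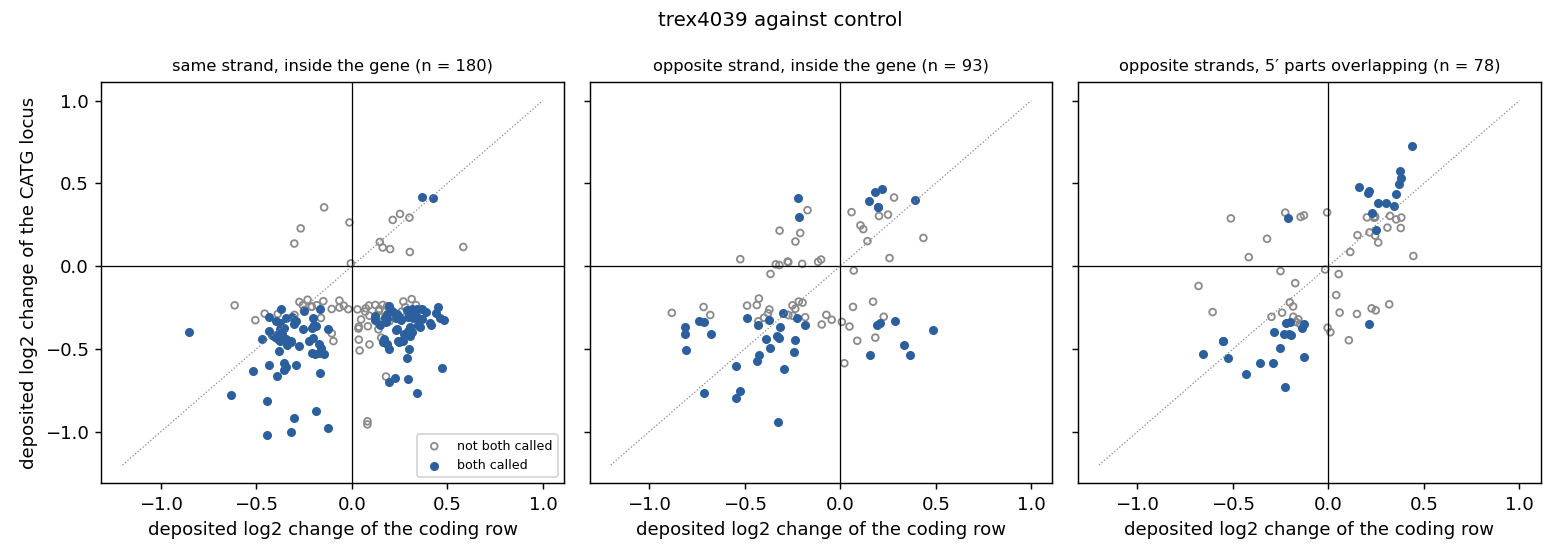
Deposited log2 change of each CATG locus (vertical axis) against that of the protein-coding row it overlaps (horizontal axis) in trex4039, for loci inside a gene on the same strand, inside on the opposite strand, and head-to-head; filled points are pairs with an adjusted p under 0.05 on both sides, and the dotted line marks equal change. In the first panel 55 filled points lie where the locus fell and the gene rose, and in the third 31 of 33 filled points lie in the quadrants of equal direction.

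CATG loci close to each other and both called in trex4039 mostly moved alike, where most called CATG loci fell. Within 50 kb of one another lay 111 pairs of CATG loci, 28 of them with the same name. In trex4039, 59 pairs were called on both sides in the authors' deposited table, of which 55 had the same direction. These include 21 of 21 pairs with the same name and 34 of 38 with different names. Of the 514 CATG loci called there, 429 fell and 85 rose, so called loci often share a direction at any distance. Agreement beyond that share was not tested. Pairs with the same name may be parts of 1 transcript and are not separate observations. With 1 locus kept per name, 413 loci fell and 85 rose in trex4039.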

How the data were processed

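RNA of HEK293FT cells was sequenced in 15 libraries (5 groups of 3, by title) and the authors' deposited table of 11230 rows was used. The tools named, per the submitters' processing notes, are DESeq2 1.14.1, DESeq, Cufflinks, bedtools, STAR 2.5.1b and Bowtie2 2.2.1, without a role, on the builds hg19 and GRCh37. Signal columns, as deposited, hold group means of normalised counts. The deposited log2 fold changes and adjusted p-values are the authors' own, per the file headers. No count model was fitted, since values per library were not used here. The p-values therefore measure the spread between 3 libraries a group as the authors modelled it. Calls took the authors' adjusted p under 0.05. The authors' own calls equalled 0.1, with 0 mismatches. Placement, distance and strand were computed with pandas 2.3.3, numpy 2.4.6 and Python 3.11.15, and tested on simulated loci. Figures used matplotlib 3.10.9. A total of 0 columns of per-sample values were left out. Members and lists were chosen with earlier results of these data known. Named loci are, for each comparison, the 5 loci that rose most and the 5 that fell most, those called alike in 3 comparisons, the 5 highest means, the longest and shortest, and up to 15 pairs within 5 kb. CATG00000048405.1, CATG00000013843.1, CATG00000010957.1, CATG00000117497.1 and CATG00000036222.1 fall outside this rule and were chosen after their values were seen.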

Additional observations from a re-analysis of the deposited data

How the results depend on the processing

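Values per library were not used here, so leaving out a library, another normalisation and a count model were not run, and the depth limits cannot be stated. No paired analysis was possible because the table holds group means and the replicates carry no shared numbers. Distances to a reference annotation of the same build were not run either. The added alternatives of 1 locus per name and of loci with an adjusted p were chosen after seeing the data. No alternative for a median log2 change altered its sign.

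Numbers follow in the order trex0108, trex4039, trex5008, trex8168 where 4 are given. Loci called were 10, 5, 1 and 4 with a log2 change of at least 1, 11, 147, 97 and 45 with a mean of at least 50, and 26, 263, 85 and 60 without overlap of a coding row. At an adjusted p under 0.01 they were 294 in trex4039, 83 in trex5008 and 55 in trex8168, and at 0.1 they were 183 in trex8168. All of these but the setting of 0.1 leave fewer loci by their construction. The median change in trex4039, trex5008 and trex8168 was -0.82, -0.32 and -0.43 as a ratio of means with a pseudocount of 1, and -0.58, -0.24 and -0.31 with a pseudocount of 10. With a mean of at least 50, the median length was 12386 bp and the median distance 23 bp. Midpoint to midpoint the median distance was 44934 bp. Pairs changed alike numbered 88 in trex5008 at an adjusted p under 0.1, and 11 in trex8168 within 50 kb. The other 38 values moved by at most 1.5 times for counts, length and distance, or by under 0.1 for a median log2 change.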
